A study of Mus musculus with 12 samples.

Results

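The 5 wild-type libraries among the 12 RNA-seq libraries of a study of the zinc finger factor Bcl11b are described here by themselves, as the transcriptome of unperturbed pre-selection CD4+CD8+ (double positive, DP) thymocytes. They were taken by their titles, and no library of another genotype entered any value. The other 7 libraries came from Bcl11b m/m newborns (3 libraries) and from Bcl11b fl/fl:Cd4-Cre mice (4 libraries). The wild-type cells came from the thymus of newborn C57BL/6 mice and were sorted as CD24hi TCRβlo CD4+CD8+ cells, a gate for DP thymocytes that have not yet been positively selected. The description attached to each of the same samples names Bcl11b m/m, against its title and the overall design, and the descriptions of the fl/fl:Cd4-Cre samples name Bcl11b+/+ against theirs. The protocol text attached to them speaks of double negative NKT cells, against the source given for the sample. No label states that the 5 libraries came from separate animals. Xist and Y-linked genes, given further on, differed between them, so that they did not all come from a single animal, but how many animals there were is not stated, and the spread given here, as an SD over n = 5 libraries, may in part be technical.

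DP thymocytes are the stage at which T cell precursors rearrange the TCRα locus, test the resulting receptor on self peptide and MHC, and then die or mature into CD4 helper or CD8 cytotoxic cells. Before selection they carry both coreceptors, little surface TCR and the recombination machinery, and keep ThPOK, the factor of the helper lineage that Zbtb7b encodes, switched off. Runx3 has the matching role in the cytotoxic lineage.

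Levels are given as FPKM, fragments per kilobase of transcript per 1000000 mapped fragments, the unit the authors deposited, which divides by transcript length. Libraries still differed by transcript length, as given further on. The table held 23234 features. After microRNA, snoRNA and scaRNA features were left out (724, which took 7.02 to 17.08% of the summed FPKM of a library), 22510 genes were ranked by their mean over the 5 libraries. Read numbers were not given, and the steps between low FPKM values put the depth at about 4 to 6.94 × 1000000 fragments per library. At that depth 3 fragments on a transcript of 2 kb are worth 0.240 to 0.417 FPKM, and levels under this floor cannot be told from 0. Between 10259 and 10384 genes per library stood at 1 FPKM or more. Across the 10401 genes that averaged 1 FPKM or more, Pearson's r of log2(FPKM + 1) between pairs of libraries ranged from 0.935 (replicates 1 and 4) to 0.984 (replicates 2 and 3), which describes genes and not independent replicates. Positions are those of GENCODE vM1 on NCBIM37 (mm9), the build named in the submitters' processing notes.

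The labelled cell type was checked against its markers, and all 3 lay among the 50 most abundant genes. Tcf7, the HMG box factor TCF-1 that Notch signals induce in early T cell precursors (chr11:52065873-52096681, minus strand), stood at 2055, 2054, 2418, 2245 and 2092 FPKM in replicates 1 to 5. Its mean of 2173 ± 158 FPKM made it the gene in place 4 of 22510 and the most abundant listed transcription factor in every library. Rag1, the recombinase that cuts antigen receptor genes (chr2:101478439-101489658, minus strand), stood at 1183, 1383, 1564, 971 and 1384 FPKM, with a mean of 1297 ± 227 FPKM in place 17. Replicate 4 was its lowest library, and Rag1 was there in place 60 against places 10 to 15 in the others. Cd8a, a chain of the CD8 coreceptor (chr6:71323421-71329165, plus strand), stood at 704, 967, 1006, 1054 and 886 FPKM, with a mean of 923 ± 137 FPKM in place 42. It was lowest in replicate 1 and highest in replicate 4. Of 26 listed markers of pre-selection DP cells, 25 had a mean of at least 5 FPKM, as had 7925 of all 22510 genes. The median listed marker stood at 169 FPKM. The exception among the markers was Cplx1, a synaptic complexin, whose mean of 0.0408 FPKM lies under its floor of 0.275 FPKM. The list was drawn up with earlier results of these data known, so the count is not independent of them.

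Abundant genes differed in the CG content of their promoters, and 3 windows are shown to let this be seen. Each runs from 250 bases before to 50 after the start that RefSeq lists first for the gene (GRCm38.p6), written 5′ to 3′ on the gene's strand, with every CG dinucleotide in capitals. The motif searched was CG, which reads the same on both strands. Eef1a1 is the most abundant gene, and Rag1 and Cd8a are stage markers. The window of Tcf7 is not shown, because the window listed for it holds coding sequence. The windows are chr9:78481675-78481974 (minus strand) for Eef1a1, chr2:101649483-101649782 (minus) for Rag1 and chr6:71373177-71373476 (plus) for Cd8a.
Eef1a1: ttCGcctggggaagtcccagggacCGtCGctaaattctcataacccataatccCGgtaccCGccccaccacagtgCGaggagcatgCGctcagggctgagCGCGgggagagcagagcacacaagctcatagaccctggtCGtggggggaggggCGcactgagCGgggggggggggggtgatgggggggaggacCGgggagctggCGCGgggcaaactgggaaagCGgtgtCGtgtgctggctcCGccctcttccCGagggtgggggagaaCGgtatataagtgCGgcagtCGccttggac
Rag1: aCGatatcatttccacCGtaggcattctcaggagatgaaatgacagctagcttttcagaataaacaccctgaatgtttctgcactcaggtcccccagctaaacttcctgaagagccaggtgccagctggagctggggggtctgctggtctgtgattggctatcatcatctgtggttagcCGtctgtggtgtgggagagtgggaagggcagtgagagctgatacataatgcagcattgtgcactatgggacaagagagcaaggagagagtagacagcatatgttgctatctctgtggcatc
Cd8a: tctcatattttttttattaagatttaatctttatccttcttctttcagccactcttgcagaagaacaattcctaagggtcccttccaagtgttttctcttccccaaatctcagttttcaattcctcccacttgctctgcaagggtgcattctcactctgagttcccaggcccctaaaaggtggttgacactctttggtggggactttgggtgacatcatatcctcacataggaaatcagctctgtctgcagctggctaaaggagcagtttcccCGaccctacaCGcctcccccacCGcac

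The Eef1a1 window holds 22 CG dinucleotides, and 23.3% of the 27025 genes with a window have as many or more. The Rag1 and Cd8a windows hold 3 each, a number that 76.2% of all windows reach. The median was 7 CG over all windows, 21 over the 7450 matched genes that averaged 1 FPKM or more, 22 over the 359 matched genes among the 500 most abundant, 21 over 60 matched ribosomal protein genes and 4 over the 17 matched stage markers at 1 FPKM or more, Tcf7 left out. Starts were taken as listed for all other genes. Under 10 CG stood 14.5% of the abundant set, 14.9% of the genes at 1 FPKM or more, 64.7% of these stage markers and 56.1% of all genes. With Tcf7 kept, the stage markers had a median of 4.5 CG, and 61.1% of them stood under 10. Dntt with 2 CG and Rag2 with 3 were on the low side, and Rmnd5a with 37, Ets2 with 30 and Aqp11 with 27 on the high side of the same marker list. These counts describe the letters of a window and nothing that binds there.

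The most abundant genes were those of protein synthesis, the actin cytoskeleton and chromatin, with T cell genes between them. The 10 highest genes took 5.5 ± 0.3% of the summed FPKM, the 100 highest 24.9 ± 2.0% and the 500 highest 47.0 ± 2.6%. A mean of 1000 FPKM or more was found for 35 genes, while 617 lay from 100 to 1000, 5396 from 10 to 100 and 4353 from 1 to 10, and 7157 were listed at 0 in all 5 libraries. Eef1a1, the elongation factor that brings tRNA to the ribosome, stood at 1835, 2783, 2970.5, 3408 and 2845 FPKM and was highest or next to highest in every library. Actb, cytoplasmic actin, followed with 2584 ± 612 FPKM, then Ptma, prothymosin alpha, a small acidic chromatin protein, with 2329 ± 513 FPKM. Ribosomal protein genes held 15 of the 30 highest places and 44 of the 100 highest. Together the 81 of them at 1 FPKM or more took 10.9, 13.3, 13.8, 15.6 and 13.1% of the summed FPKM in replicates 1 to 5, lowest in replicate 1 and highest in replicate 4.

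Among the 30 highest genes, 4 were T cell genes. They were Tcf7, Cd8b1, Thy1 and Rag1. Cd8b1, the other chain of the CD8 heterodimer, stood at 1279.7, 1567, 1773, 2099 and 1589 FPKM. Thy1, the glycoprotein CD90 of the T cell surface, stood at 1304, 1535, 1746, 1883 and 1485 FPKM. Both were lowest in replicate 1 and highest in replicate 4, and their ranges overlapped. Just below these places came Dntt (terminal transferase, which adds bases at receptor gene joints, 947 ± 172 FPKM, place 37), Ly6d (934 ± 485, place 40) and Lck, the kinase bound to both coreceptors (781 ± 111, place 54). Gm9846 and Gm12191, among the 30 highest, are short features of 344 and 348 nt, and the levels of such numbered genes are uncertain, since reads of an expressed gene can be shared with a near-identical copy.

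**Figure D1:**
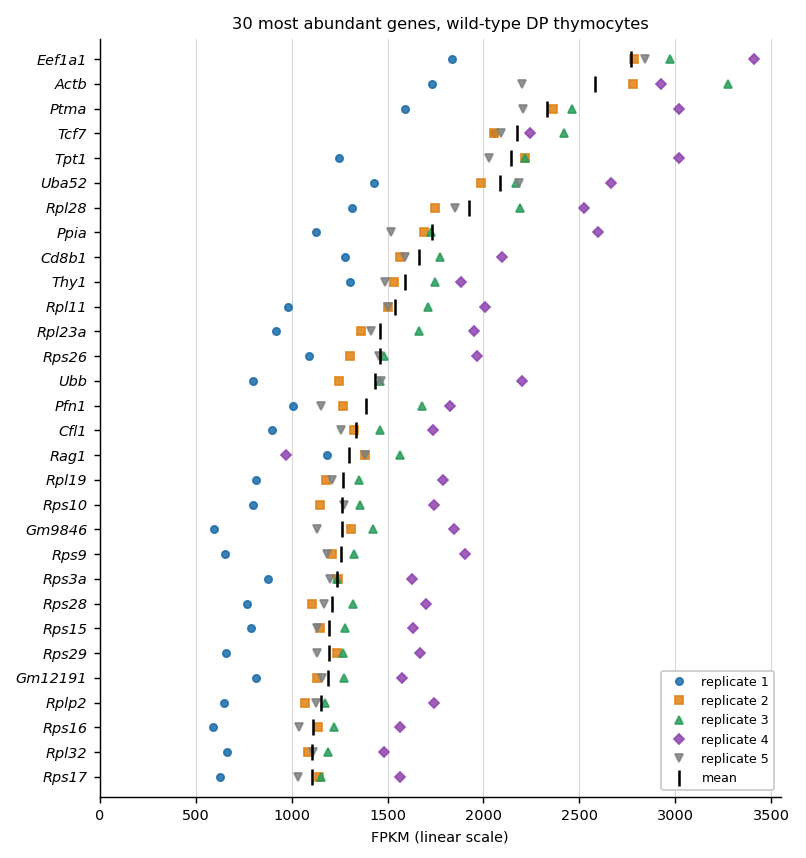
FPKM (linear axis) of the 30 genes with the highest mean in the 5 wild-type libraries, each library a point and the mean a black bar. Tcf7 has the narrowest range of the 5 highest genes, from 2054 to 2418 FPKM, while Eef1a1 runs from 1835 to 3408 FPKM, and replicates 1 and 4 form most of the ends.

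Of the recombination genes listed, all 13 had a mean of at least 1 FPKM, as had 46.2% of all genes. Rag2, the partner of Rag1, stood at 107, 112, 136, 117 and 90.2 FPKM, so that Rag1 was higher by a factor of 11.7 ± 2.5 within a library (8.29 to 15.3). The genes of the end-joining machinery differed widely in level. Xrcc6, the smaller Ku subunit, stood at 207, 305, 311, 318 and 266 FPKM and Xrcc5, the larger one, at 3.85, 8.79, 9.58, 10.6 and 9.71 FPKM. The groups of values did not overlap, and the ratio was 27.4 to 53.8 in single libraries. Lig4, the ligase of the pathway, had a mean of 41.9 ± 4.88 FPKM, Dclre1c (Artemis, which opens hairpin ends) of 24.2 ± 4.77 and Prkdc, its kinase partner, of 2.99 ± 0.880.

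Transcription factors were the next group. Of 270 listed factors and cofactors in the table, 199 (73.7%) had a mean of at least 1 FPKM, 138 of at least 10 and 25 of at least 100, and 9 were listed at 0 in every library. Over all 22510 genes 46.2% reached 1 FPKM, and the median factor stood at 11 FPKM against 0.448 for the median gene. Among the highest by mean were, in order, Tcf7, the HMG box protein Hmgb1 (809 ± 179.7 FPKM), Satb1 (672 ± 82.7), Ets1 (383 ± 55.8), Myb (326 ± 27.1), Ets2 (267 ± 34.1), Hmgb2 (259 ± 67.3), Maz (250.4 ± 38.6), Bcl11b (218 ± 72.5) and Ikzf1 (190.5 ± 21.4). Of the 24 neighbouring pairs among the 25 highest factors, 4 kept their order in all 5 libraries, and only the steps from Tcf7 to Hmgb1 and from Satb1 to Ets1 had ranges that did not overlap. From Ets1 down every neighbouring pair had ranges that overlapped.

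Satb1, a chromatin organiser that folds T cell loci, stood at 551, 648, 696, 688 and 778 FPKM, lowest in replicate 1 and highest in replicate 5. Myb, which DP cells need for survival and TCRα rearrangement, stood at 361, 310.0, 290.0, 329.8 and 338 FPKM. Its values differed by no more than 1.25 times between libraries. Bcl11b, the factor the study perturbs in its other libraries (chr12:109148613-109241812, minus strand), stood at 132, 286, 292, 158 and 223 FPKM. It was highest in replicates 2 and 3 and lowest in replicates 1 and 4, with replicate 5 between them.

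Members of the TCF, Ikaros and ETS families differed widely in level. In the TCF and LEF group Tcf7 was higher than Lef1 (144 ± 26.2 FPKM) by 13.4 to 18.6 times within a library, while Tcf7l1 and Tcf7l2 had means of 1.01 and 0.801 FPKM. In the Ikaros family, zinc finger repressors of lymphocyte development, Ikzf1 was followed by Ikzf3 (99.2 ± 33.5 FPKM). Ikzf5 came next with a mean of 19.87 FPKM, then Ikzf2 (7.32 ± 1.95), with Ikzf4 at 0.0977. Bcl11a, the paralogue of Bcl11b that B cells and progenitors use, was listed at 0 in all 5 libraries. Among ETS factors Ets1 exceeded Fli1 (40.1 ± 6.41 FPKM) by 8.75 to 10.1 times, and PU.1 (Sfpi1), which drives myeloid fates, had a mean of 0.591 FPKM.

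Among E proteins, the helix-loop-helix factors that hold DP cells in place until TCR signals arrive, Tcf12 (HEB, 131 ± 28.7 FPKM) and Tcf3 (E2A, 76.1 ± 9.91) led and Tcf4 (E2-2) had 5.92 ± 0.858 FPKM. The inhibitor Id3, a target of TCR signals, stood at 34.7, 74.6, 98, 125 and 71.3 FPKM. Replicate 1 was the lowest and replicate 4 the highest, and the ratio of Tcf12 to Id3 ran from 0.931 in replicate 4 to 2.53 in replicate 1. Id2, the inhibitor that innate lymphoid and mature effector cells use, had 3.77 ± 0.938 FPKM. Of the Notch nuclear effectors, Notch1 stood at 22.1, 46.9, 45.5, 16.2 and 26.8 FPKM and Notch3 at 6.66, 7.28, 6.5, 5.39 and 9.62 FPKM. The ratio of Notch1 to Notch3 was 6.44 and 7 in replicates 2 and 3 and 2.79 to 3.31 in the other 3 libraries. Of the Notch target genes listed, Hes1 had a mean of 0.115 FPKM, Nrarp of 2.94 and Dtx1 of 2.1.

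Every regulator of the choice between the CD4 and CD8 lineages that was listed and had values, except ThPOK, was expressed. Of 22 listed, 21 had values. Of these, 20 (95.2%, against 46.2% of all genes) had a mean of at least 1 FPKM and 19 of at least 5. Zbtb7b (ThPOK, chr3:89181566-89198698, minus strand) was the exception, at 0, 0.0463, 0.215, 0 and 0.0471 FPKM. It was listed at 0 in 2 libraries, and its mean of 0.0618 FPKM lies under its floor of 0.132 FPKM. Replicate 3 alone stood above this floor, and without it the mean level of Zbtb7b was 0.0233 FPKM. Runx3 (chr4:134676567-134733905, plus strand) stood at 1.97, 5.3, 6.4, 2.83 and 4.22 FPKM, low but above its floor in every library. Runx1, the family member that represses Cd4 and Zbtb7b in thymocytes, stood at 28.8, 35.2, 38.1, 24.4 and 36.6 FPKM and exceeded Runx3 by 5.94 to 14.6 times. Their partner Cbfb had 68.4 ± 7.25 FPKM.

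The factors that precede ThPOK in the helper lineage were present. Gata3 stood at 28.9, 27.7, 36.1, 45.1 and 43.8 FPKM and Tox at 33.2, 35.1, 55.6, 52.3 and 58 FPKM. Replicates 1 and 2 were the lowest libraries for both genes, and Tox exceeded Gata3 in every library. Patz1 (MAZR), which restrains Zbtb7b, had 55.6 ± 5.42 FPKM, and Bcl6 had 89.9 ± 4.15 FPKM with a CV of 4.62%. The NuRD subunits Hdac1 (159.9 ± 30.3), Mta2 (141 ± 14.6) and Chd4 (140.2 ± 15.8) lay close together, and Hdac2 had 74.5 ± 13.2 FPKM. Hdac1 exceeded Hdac2 by 2.07 to 2.27 times within a library. Hivep3 (Schnurri-3) had 9.73 ± 4.36 FPKM, with replicate 4 at 3.07, below the 9.51 to 15.2 of the other libraries. The median SD of log2(FPKM + 1) over the 19 regulators with a mean of at least 5 FPKM was 0.172, and over all 7925 genes at that level it was 0.270.

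**Figure D2:**
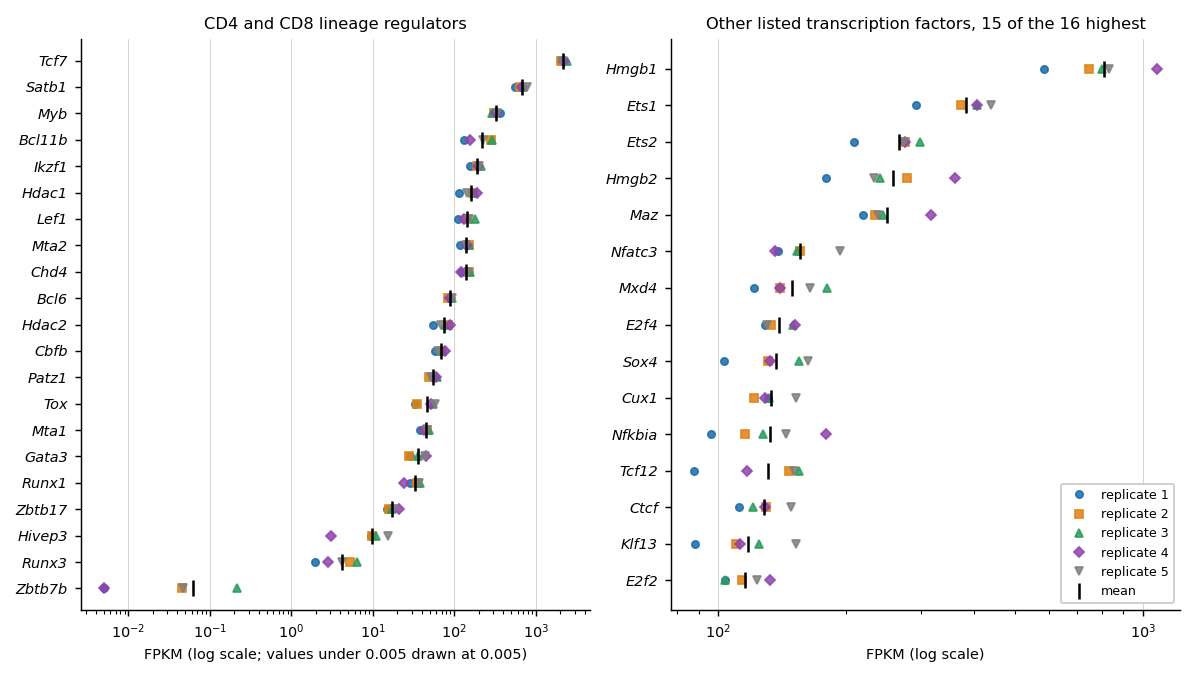
FPKM (log axis) of the 21 CD4 and CD8 lineage regulators that had values and of 15 of the 16 highest other transcription factors, with 1 point per wild-type library and a bar at the mean. Zbtb7b lies apart at the low end, with 2 libraries listed at 0 and drawn at 0.005, and Runx3 is the next lowest with 1.97 to 6.40 FPKM.

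Factors that TCR signals act on differed widely in level. Egr1 had 52.1 ± 13.4 FPKM, Nr4a1 (Nur77) 20.1 ± 4.34, Egr2 6.63 ± 1.95 and Egr3 2.59 ± 0.907. Fos and Jun had means of 1.23 and 2.18 FPKM and Myc of 9.47, whereas Jund had 109.6 ± 26.3 FPKM. Of the NFAT factors, which calcineurin sends to the nucleus, Nfatc3 had 156 ± 23.3 FPKM, Nfatc1 27.1 ± 5.87 and Nfatc2 5.73 ± 1.59. Stat5b (107 ± 17.7 FPKM) exceeded Stat5a (56.3 ± 11.1) by 1.80 to 2.08 times.

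Of 139 listed surface receptors in the table, 100 (71.9%, against 46.2% of all genes) had a mean of at least 1 FPKM. A mean of at least 100 FPKM was found for 27, and 8 were among the 100 most abundant genes. All 9 members of the coreceptor and TCR-CD3 group were above 5 FPKM, with a median of 558 FPKM. Cd4 (chr6:124814710-124838239, minus strand) stood at 527, 574, 651, 589 and 649 FPKM. It was lower than Cd8a in every library, with a ratio of 0.559 to 0.749, while Cd8b1 exceeded Cd8a by 1.62 to 1.99 times. The CD3 chains carry the signal of the receptor. Cd3e had 603 ± 143 FPKM, Cd3g 558 ± 142, Cd247 (the ζ chain) 447 ± 86.3 and Cd3d 219 ± 77.4. Cd3d was the lowest of the 4 in every library, and Cd3e exceeded it by 2.36 to 3.90 times. Ptcra, the surrogate alpha chain of the pre-TCR at the preceding double negative stage, stood at 29.3, 36.8, 40.8, 44.5 and 39.5 FPKM.

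Among other surface genes Ly6e (857 ± 187 FPKM), Cd27 (359 ± 18.8), the pan-leukocyte phosphatase Ptprc (CD45, 234 ± 19.7) and Cd24a (182 ± 37.4), the antigen used in the sort, were high. Cd5, whose level follows TCR signal strength, stood at 66.3, 74.4, 86.7, 148 and 139.9 FPKM. Replicates 4 and 5 stood well above the other 3. The activation marker Cd69 had 23.5 ± 8.07 FPKM. Of the chemokine receptors that hold DP cells in the cortex, Cxcr4 had 330.3 ± 69.2 FPKM and Ccr9 281 ± 20.3. Of the receptors of the medulla and of exit from the thymus, Ccr7 and S1pr1 were low. Ccr4 and S1pr4, listed with them, had means of 12.54 and 11.42 FPKM. Ccr7 stood at 1.3, 1.92, 1.7, 2.62 and 1.58 FPKM, and S1pr1, which guides cells to the blood, at 0.0508, 0.0572, 0, 0 and 0 FPKM with 3 libraries listed at 0. Of 18 chemokine and egress receptors 8 (44.4%) reached 1 FPKM, close to the 46.2% of all genes, and 3 (16.7%, against 31.8% of all genes) were listed at 0 throughout, namely Cxcr3, Ccr6 and Ccr8.

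The chains of cytokine receptor complexes differed in level. The common gamma chain Il2rg had 239 ± 26.3 FPKM, and the interferon gamma receptor chain Ifngr1 282 ± 53. Il7r, the IL-7 receptor that double negative and selected cells carry and DP cells lack, stood at 0.0119, 0.0537, 0.0833, 0.0885 and 0 FPKM, under its floor of 0.182 FPKM in each library. Kit, the receptor of early progenitors, had 0.399 ± 0.118 FPKM. Il2ra (CD25) had 3.73 ± 1.08 FPKM and Il2rb 0.109 ± 0.0723, so that of the 4 chains of the IL-2 and IL-7 receptors only the shared one was above 5 FPKM. Il4ra had 40.6 ± 9.85 FPKM, Il21r 76.9 ± 16 and Il17ra 82.5 ± 8.31.

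Nearly all listed signalling genes that had values were expressed. Of these 121, 116 (95.9%, against 46.2% of all genes) had a mean of at least 1 FPKM. The same 116 stood at 1 FPKM or more in every library. All 57 members of the RAS, MAPK, calcium and PI3K list had a mean of at least 5 FPKM, as had 7925 of all 22510 genes. Lck stood at 687, 734, 771, 971 and 741 FPKM and was the highest signalling gene on average. It exceeded Fyn, the other SRC kinase of T cells, by 18.2 to 25.5 times within a library. Lat, the membrane adaptor that Zap70 phosphorylates, stood at 578, 515, 573, 915 and 626 FPKM. Replicate 4 was above the other 4 libraries, which lay within 515 to 626 FPKM.

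Zap70, the kinase that binds the phosphorylated CD3 and ζ chains, had 75.5 ± 15.5 FPKM and exceeded Syk (12.2 ± 1.19), its relative of B and early T cells, by 5.29 to 8.60 times. Themis, needed for positive selection, had 140.5 ± 16.3 FPKM, the adaptor Lcp2 (SLP-76) 120.3 ± 21.5 and the RAS activator Rasgrp1 154 ± 20.7. Of the negative regulators, Csk had 114 ± 16 FPKM, Ptpn6 (SHP-1) 111 ± 14.7, Cbl 106 ± 40.7, and the diacylglycerol kinases Dgkz and Dgka 194 ± 11 and 153 ± 13.3. Socs1, a brake on cytokine signals, stood at 74.4, 115, 128, 163 and 137 FPKM. The related Cish and Socs2, which STAT5 induces, had means of 0.101 and 0.0836 FPKM, both under their floors. The neighbouring places within the signalling order were not separated: 2 of 24 pairs kept their order in all 5 libraries and none had ranges apart.

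**Figure D3:**
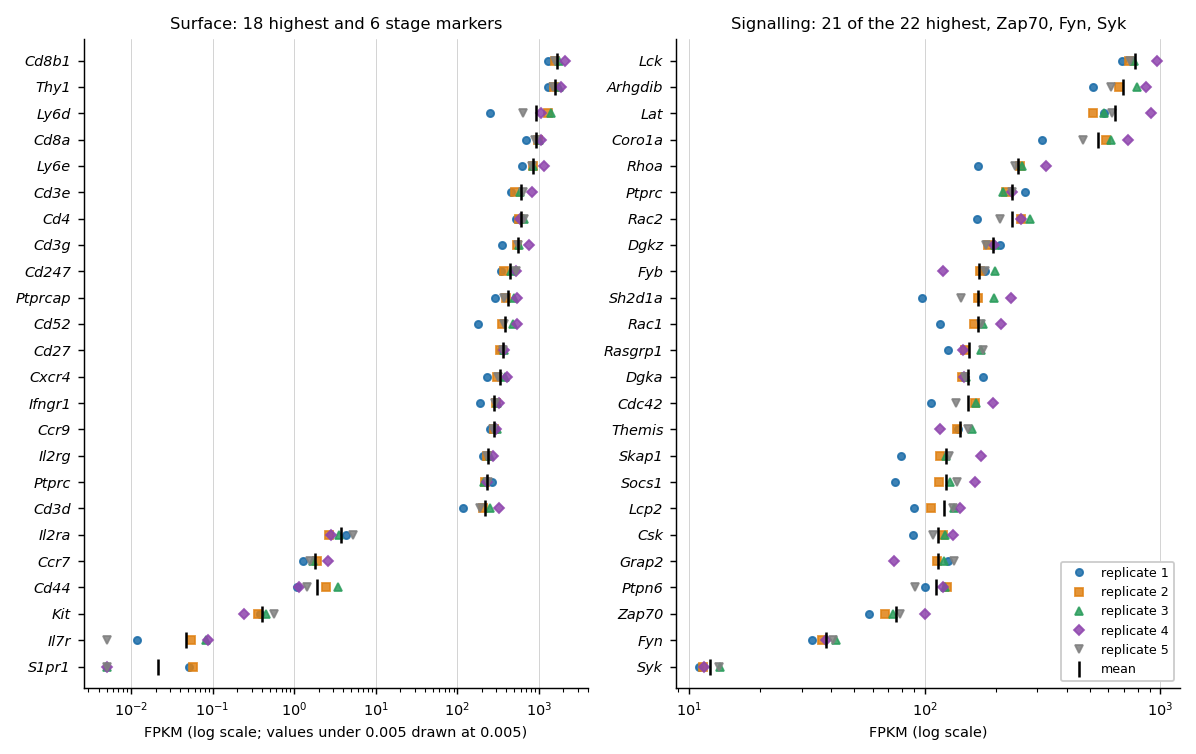
FPKM (log axis) of surface receptors, with the 18 highest and 6 stage markers, and of signalling genes, with 21 of the 22 highest and Zap70, Fyn and Syk, as 1 point per wild-type library and a bar at the mean. Il7r and S1pr1 lie below 0.1 FPKM in every library.

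Survival genes differed in level. Bcl2l1 (Bcl-xL), the survival protein of DP cells, stood at 78.2, 111, 122, 159.9 and 138 FPKM, and Bcl2, which double negative and selected cells use, at 1.86, 1.95, 2.06, 2.91 and 3.19 FPKM. The ratio of Bcl2l1 to Bcl2 was 42.0 to 59.1 in single libraries. Mcl1 had 126 ± 15.5 FPKM, above Bcl2l1 in replicates 1 to 3 and below it in replicates 4 and 5. Of the genes for death-promoting proteins Bak1 had 56.3 ± 11.1 FPKM, Bax 37.4 ± 13.6, Bcl2l11 (Bim), which removes autoreactive cells, 17 ± 1.93, Bbc3 (Puma) 14.1 ± 2.42 and Pmaip1 (Noxa) 0.876 ± 0.231. All 24 S phase genes listed, and the 24 of 25 listed mitosis genes that had values, had a mean of at least 1 FPKM. Among them were Pcna (295 ± 58.8 FPKM), Top2a (136 ± 11.1) and Mki67 (101 ± 36.4). Over all genes 46.2% reached 1 FPKM.

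Genes of earlier and later thymocytes were mixed. Of 22 genes that rise after selection, 19 (86.4%, against 46.2% of all genes) had a mean of at least 1 FPKM. The median of the 22 was 6.57 FPKM, and their summed level ran from 618 FPKM in replicate 1 to 1257 in replicate 4. Cd52 (386 ± 141 FPKM), Gimap6 (200.4 ± 31.1) and Cd5 were the highest members, whereas Klf2, which switches on exit genes, had 1.82 ± 0.636 FPKM and Gimap4 1.16 ± 0.298. Of 20 genes of double negative cells, 12 (60%) reached 1 FPKM. Cd3e, Myb and Tcf12 among them are used at both stages, and Cd44 (1.92 FPKM on average), Hhex (0.0610), Erg (0.0161) and Mef2c (0.0736) were low. In such bulk samples a low level in every cell and a high level in a few cells, or fewer cells of a type and less RNA per cell, cannot be told apart.

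Genes of other lineages were mostly low. Of 182 listed members in the table, 135 (74.2%) had a mean under 1 FPKM, against 53.8% of all genes, and the median member stood at 0.113 FPKM. In all 5 libraries 46 (25.3%) were listed at 0, a smaller share than the 31.8% of all genes. Antigen presentation genes went the other way, with 3 of 9 under 1 FPKM, and of the genes of gamma-delta T cells 9 of 13 were. For B cells, 18 of 25 genes were under 1 FPKM. Ms4a1 (CD20) and Cd79a had means of 0.0352 and 0.383 FPKM and Pax5 was listed at 0, but Cd79b, a chain of the B cell receptor complex, stood at 12.4, 19.8, 20.7, 17.2 and 14.4 FPKM and Ralgps2 at 18.2, 18.5, 16.7, 19.3 and 20.9 FPKM. For myeloid cells, 21 of 31 were under 1 FPKM. Lyz2 (lysozyme) stood at 2.19, 6.44, 7.05, 6.72 and 4.53 FPKM. The complement genes C1qa, C1qb and C1qc had means of 2.37, 2.4 and 2.45 FPKM and Itgam of 2.595, while Csf1r had 0.267 and Mpo 0.0245. The neutrophil genes S100a8, S100a9, Elane and Ctsg were listed at 0 throughout.

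For NK and cytotoxic cells, 19 of 22 genes were under 1 FPKM and 11 were listed at 0 in all 5 libraries, among them Gzmb, Ifng and Ncr1. Gzma (granzyme A) was the highest of the 3 members at 1 FPKM or more, at 16.4, 67.1, 46.1, 29.3 and 22.7 FPKM. Replicate 2 was the highest and replicate 1 the lowest, and the perforin gene Prf1 had 2.45 ± 0.918 FPKM. For erythroid cells, 13 of 18 were under 1 FPKM. Hba-a1, an alpha globin, stood at 1.6, 3.63, 5.27, 22.7 and 8.78 FPKM, highest in replicate 4. It has a near-identical copy in the genome, so that its level is uncertain. Hbb-b1 had a mean of 2.08 FPKM, while Klf1 was listed at 0. For thymic stroma, 21 of 26 were under 1 FPKM. Foxn1, Krt8 and Col1a1 had means of 0.0141, 0.269 and 0.123 FPKM, but Epcam, of the same list, had 3.04 FPKM. The members above 5 FPKM were Pecam1 (53.8 ± 11), an adhesion molecule that leukocytes also carry, and Cldn4 (17.7 ± 8.998), a claudin.

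MHC class II genes were low but above the floor. Cd74, the invariant chain, stood at 4.17, 10.8, 12.4, 14.6 and 6.65 FPKM, H2-Oa at 7.48, 18, 20.2, 18.8 and 19.4 FPKM and H2-Ab1 at 3.77, 9.8, 6.33, 8.14 and 5.32 FPKM, each lowest in replicate 1. The transactivator Ciita had a mean of 0.229 FPKM. The summed level of 9 antigen presentation genes ran from 23.2 FPKM in replicate 1 to 69.5 in replicate 4, and that of the 31 myeloid genes from 18.5 in replicate 1 to 35.4 in replicate 3. Whether a share of other cells took part in these values was not tested. Of the helper, regulatory and effector T cell genes 18 of 24 were under 1 FPKM. The cytokines Il2, Il4, Il10, Il17a and Ifng were listed at 0 throughout, Foxp3 and Zbtb16 (PLZF, the factor of NKT cells) had means of 0.0327 and 0.00620 FPKM, and the members above 5 FPKM included Bcl6, Gata3 and Ikzf2. Of 22 stem and progenitor genes, 20 were under 1 FPKM, and Cd34, Mecom, Hoxa9 and Gata2 were listed at 0.

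**Figure D4:**
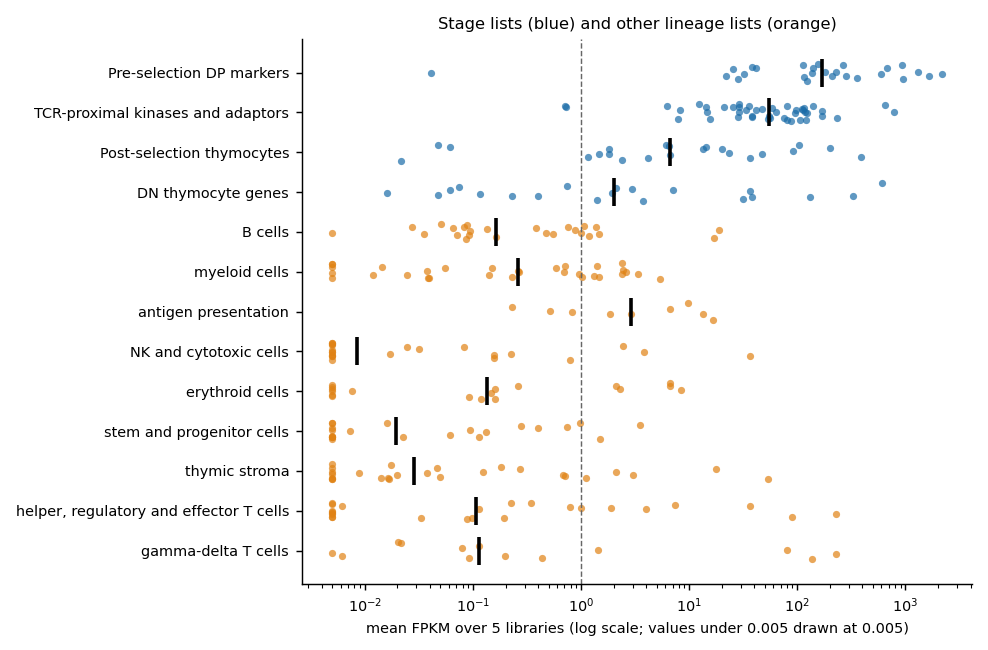
Mean FPKM (log axis) of the members of 4 stage or signalling lists (blue) and 9 lists of other lineages (orange), 1 point per gene, a bar at the list's median and a dashed line at 1 FPKM. The medians of the other lineages run from 0.00852 FPKM for NK and cytotoxic genes to 2.91 FPKM for antigen presentation. Those of the pre-selection DP markers and of the TCR-proximal list, 169 and 54.5 FPKM, lie far to the right of them. The post-selection median, 6.57 FPKM, lies closer, and the double negative median, 2.01 FPKM, lies within their range.

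The spread between the 5 libraries was small for most genes and large for few. Over 7807 genes that averaged 5 FPKM or more and had a known length the median SD of log2(FPKM + 1) was 0.268, where counting error alone would give about 0.0803 at the estimated depth. It exceeded 1 for 43 of 7925 genes, and for 28 without replicate 1. The steadiest genes above 100 FPKM were Sf1, a splicing factor (113 ± 3.14 FPKM), BC005537 (105 ± 3.75) and Trp53inp1, a p53 target (239.7 ± 8.8). Cd27 was in place 8 of that order, Tcf7 in place 13 and Ccr9 in place 15.

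Replicates 1 and 4 were the libraries most often farthest from the median, for 48.2% and 30.6% of the 7925 genes, against 4.7 to 9.6% for the others. Their deviation ran with transcript length. In replicate 1 the median log2 deviation from the mean of the 5 libraries was -0.59 for 271 genes with transcripts under 800 nt and -0.05 for 1388 genes of 5000 nt or more. In replicate 4 it was 0.50 and -0.15 for the same genes, while replicates 2, 3 and 5 stayed between -0.04 and 0.16 in every length class. The median ribosomal protein gene, a short transcript, stood at 336, 499, 527, 727 and 499 FPKM in replicates 1 to 5. The long nuclear RNA Malat1 stood at 167, 69.999, 54.2, 37.4 and 54.5 FPKM and Neat1 at 92.9, 58.7, 44.5, 36 and 27.1 FPKM, both highest in replicate 1. Replicate 1 also had the largest share of short RNA features, 17.08%, and the lowest summed FPKM. The part of RNA quality or library preparation in these values was not tested, and each gene named above as lowest in replicate 1 and highest in replicate 4 shares them.

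**Figure D5:**
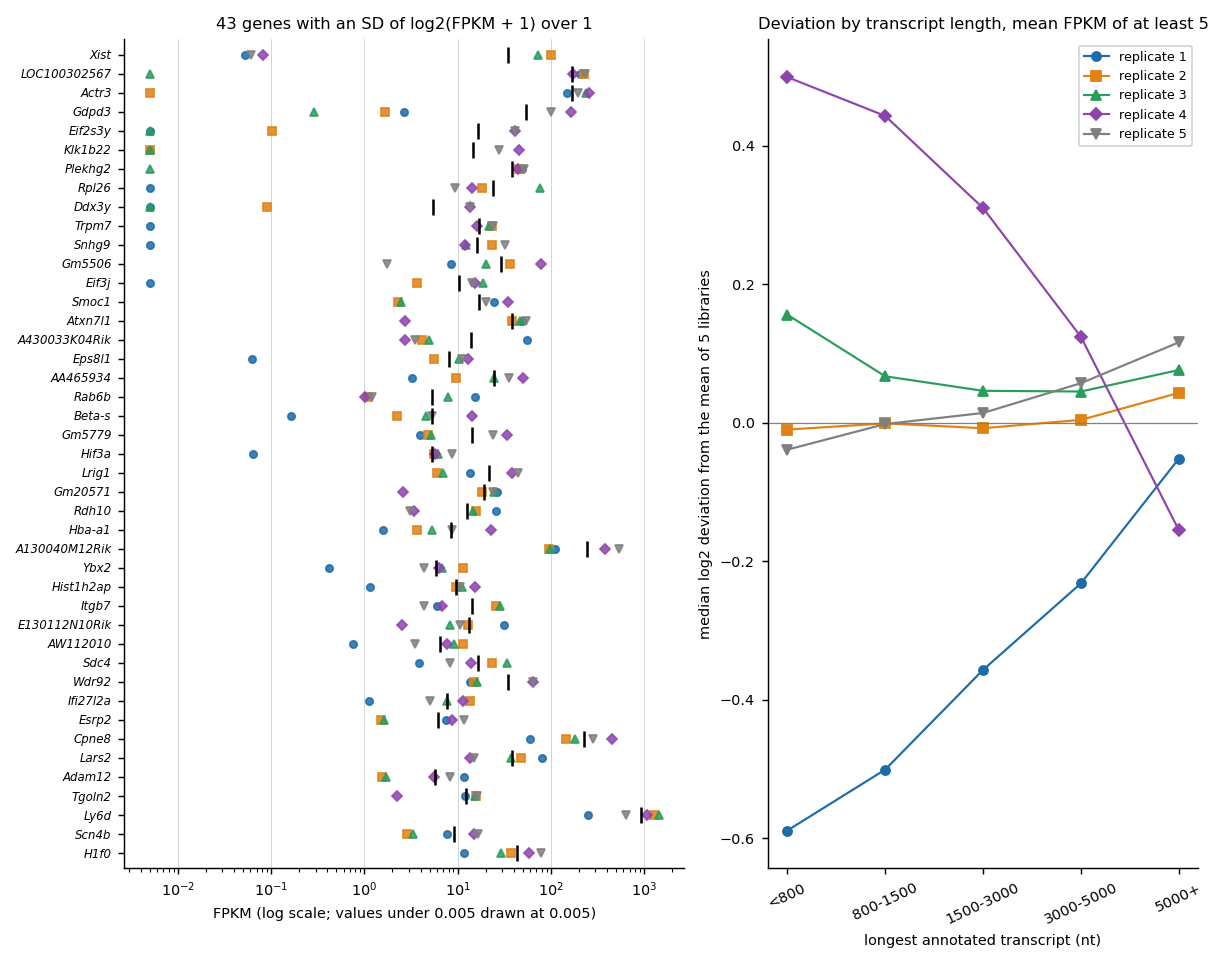
Left, FPKM (log axis, values under 0.005 drawn at 0.005) of the 43 genes whose SD of log2(FPKM + 1) exceeds 1, 1 point per wild-type library and a bar at the mean. Right, the median log2 deviation of each library from the mean of 5 by transcript length, which falls from 0.50 to -0.15 in replicate 4 and climbs from -0.59 to -0.05 in replicate 1.

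The genes that varied most fell into a few patterns of libraries. Of the 43, 5 were listed at 0 in 1 library although their median was at least 5 FPKM, and these zeros may be failed estimates. Actr3, a subunit of the ARP2/3 actin complex, stood at 147, 0, 238, 254 and 197 FPKM, and the others were LOC100302567 and Plekhg2 (0 in replicate 3) and Snhg9 and Trpm7 (0 in replicate 1). Rpl26 belongs with them in kind, at 0.00120, 18.5, 76.4, 14.4 and 9.37 FPKM, far below the median ribosomal protein gene in every library. Patterns were read from the widest step between neighbouring libraries in log2(FPKM + 1), where it exceeded 2-fold.

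Genes of the X and Y chromosomes were among the most variable. Xist, the RNA that silences an X chromosome in female cells, stood at 0.0527, 101, 73, 0.0827 and 0.0603 FPKM. Eif2s3y, a translation factor of the Y chromosome, stood at 0, 0.103, 0, 41 and 40.8 FPKM, Ddx3y at 0, 0.0910, 0, 13.6 and 13.6 FPKM and Kdm5d at 0, 0, 0, 9.95 and 12.6 FPKM. Xist was thus high in replicates 2 and 3 and the Y genes in replicates 4 and 5, and replicate 1 had neither. Kdm6a, which escapes X inactivation, stood at 14.6, 26.9, 25.7, 12.6 and 16.1 FPKM, higher in replicates 2 and 3 than in the other 3. The labels give no sex.

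Of the 38 variable genes that were not listed at 0 beside such a median, 8 were higher in replicates 4 and 5 than in the other 3 libraries. Besides Eif2s3y and Ddx3y these were Gdpd3, a lipid phosphodiesterase (2.66, 1.68, 0.290, 164 and 99.3 FPKM), Klk1b22, a kallikrein (0, 0, 0, 45.8 and 27.6 FPKM), the growth factor receptor inhibitor Lrig1 (13.6, 6.04, 7.05, 38.5 and 44.2 FPKM), A130040M12Rik (111, 94.9, 96.7, 376 and 537 FPKM), Wdr92 and Gm5779. Another 4 were higher in replicates 1, 4 and 5, namely Smoc1 (24.7, 2.28, 2.46, 34.9 and 20.05 FPKM), Esrp2, Adam12 and Scn4b, and Xist and the integrin chain Itgb7 (6.05, 25.7, 28.4, 6.81 and 4.32 FPKM) were higher in replicates 2 and 3. None of these patterns has a counterpart in the labels. The largest group, 13 genes, was low in replicate 1 alone and held Ly6d, Cpne8 (59.2, 147, 181, 457 and 282 FPKM), Ifi27l2a, Beta-s and Rpl26. Atxn7l1, Gm20571, E130112N10Rik and Tgoln2 were low in replicate 4 alone, Rdh10 and the mitochondrial tRNA synthetase Lars2 (79.7, 47.4, 37.6, 13.5 and 15.1 FPKM) were low in replicates 4 and 5, and A430033K04Rik was high in replicate 1 alone, at 54.9, 4.16, 4.98, 2.72 and 3.46 FPKM.

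Interferon response and MHC class I genes had a wider spread than the median gene. The median SD of log2(FPKM + 1) was 0.527 for 14 listed interferon response genes and 0.458 for 19 genes of MHC class I, against 0.270 for all genes at that level, and it was 0.156 for 7 p53 response genes. The sets were not matched for transcript length, or for level beyond the mean of 5 FPKM. The summed levels of the interferon and MHC class I lists were both lowest in replicate 1. Bst2 (tetherin) stood at 16.9, 60.9, 47.7, 33.8 and 18.7 FPKM and Isg15 at 5.72, 15.9, 10.1, 8.59 and 2.6 FPKM, both highest in replicate 2. B2m, the light chain of MHC class I, stood at 297, 716, 829, 564 and 367 FPKM and H2-K1, a heavy chain, at 12.9, 48.1, 49.96, 23.8 and 16.7 FPKM. Both were highest in replicates 2 and 3, and heavy chain levels are uncertain because members of the family share sequence. Ly6d, a surface antigen of lymphoid precursors and the most abundant gene of the variable set, stood at 252, 1289, 1430.2, 1059.7 and 641 FPKM.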

How the data were processed

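RNA-seq of CD24hi TCRβlo DP thymocytes from 5 wild-type newborn libraries was used. The authors mapped the reads to mm9 with TopHat2 (given as 2.8.0 in the submitters' processing notes) and deposited FPKM per gene from Cufflinks 2.1.1 on iGenome gene models, with no stated scaling between the libraries. The paper describes a strand-specific kit and the sample labels another, so the library chemistry is uncertain. Groups followed the sample titles. Genes were ranked by mean FPKM in Python 3.11.15 (pandas 2.3.3, numpy 2.4.6, figures with matplotlib 3.10.9) after Mir, Snord, Snora and Scarna features were left out, and no test and no comparison between groups was made. A gene was counted as expressed from a mean of 1 FPKM, and as variable from an SD of log2(FPKM + 1) over 1 at a mean of at least 5 FPKM, so the spread of low genes is understated.

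Named genes were taken from the 30 most abundant, the 6 highest members of each transcription factor, surface, signalling, recombination, stage and survival list and members under 1 FPKM that define it, other lineage members from 5 FPKM and their defining markers, all CD4 and CD8 lineage regulators, the 25 most variable genes and the 3 most variable members of each list kept for spread. Further list members were named after their values were seen, as were the genes of the steadiest order. The genes and lists were chosen with earlier results of these data known. Depth was estimated from genes with a single transcript, in which 57.7 to 61.5% of low values lay within 0.1 of a whole number of steps, against 20% if spread evenly. The estimator and the spread count were checked on simulated data. Floors are 3 fragments at the estimated depth on the longest annotated transcript less 200 nt, and they and the counting spread cover counting error only. A listed 0 can be a failed estimate. Promoter windows are RefSeq's, on GRCm38.p6. Many genes that this rule chose are not printed. Alternatives were another average, scaling, filter or pseudocount and each library left out.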

Additional observations from a re-analysis of the deposited data

Results flagged for a closer look

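In 19 of the 250 named genes whose values differed, 1 library stood far from the other 4, with a gap to its nearest neighbour of more than 0.71 of the whole range. Chance does this in about 1 in 20 groups, but the 250 include genes chosen for their spread between these libraries, so the count cannot be set against chance. Replicate 4 was the far library for 6 of the 19, replicate 1 for 6, replicate 3 for 5 and replicates 2 and 5 for 1 each.

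Among factors, Ets2 stood at 209 FPKM in replicate 1 against 274 to 299.6 in the others, Maz at 317 in replicate 4 against 219 to 245, and Zbtb1 at 30.4 in replicate 3 against 26.6 to 27.3. Zbtb7b stood at 0.215 FPKM in replicate 3 against 0 to 0.0471, all at or near the floor. Among receptors and signalling genes, Ifngr1 stood at 189 in replicate 1 against 293 to 323, Itga4 at 17.7 in replicate 4 against 29.8 to 31.8, and Lat at 915 in replicate 4 against 515 to 626. Gimap6, a GTPase of lymphocyte survival, stood at 253 in replicate 4 against 177 to 198, the chaperone Hsph1 at 28.3 in replicate 1 against 5.97 to 12.2, and Tsc22d3 (GILZ, a glucocorticoid target) at 31.3 in replicate 5 against 54.2 to 62.9.

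Among genes of other lineages, H2-Oa stood at 7.48 FPKM in replicate 1 against 18 to 20.2. Cd79a stood at 0.217 in replicate 4 against 0.384 to 0.446, Klrb1c at 0.605 in replicate 4 against 0 to 0.170, Mpo at 0.123 in replicate 1 and Foxn1 at 0.0703 in replicate 2, the last pair against 0 in the other libraries, and these levels are at or near the floor. Among the most variable genes, LOC100302567 and Plekhg2 were listed at 0 in replicate 3 against 173 to 233 and 44.7 to 51.9 FPKM. Rpl26 stood at 76.4 in replicate 3 against 0.0012 to 18.5, and A430033K04Rik at 54.9 in replicate 1 against 2.72 to 4.98.

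The short RNA features left out of the ranking carried 17.08% of the summed FPKM in replicate 1, the largest share, with 7.02% in replicate 3 the smallest. Mir3064 alone stood at 26960, 15890, 6718, 22890 and 13960 FPKM in replicates 1 to 5, and Snord37 at 0, 6667, 0, 0 and 6782. Division by so short a length turns few fragments into a high FPKM, so no level of a microRNA can be read from them.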

How the results depend on the processing

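No paired analysis was possible because a single group was described and no test was made. The set of 30 most abundant genes kept 30 members with the median in place of the mean, with median-ratio scaling and with rescaling to a sum of 1000000, 25 with short RNA features kept, and 28 to 30 without any 1 replicate. Genes that averaged 1 FPKM or more numbered 10401, and 10383 to 10411 with median-ratio scaling or without any 1 replicate. A threshold of 0.5 FPKM gave 11140, and 1 FPKM in every library 9654. The share of the 100 most abundant genes was 28.82% with short RNA features kept, against 24.94%. The number of variable genes moved most. It was 68 with no filter on low values, 67 from a mean of 1 FPKM and 16 from 20 FPKM, against 43, and 28 to 56 when 1 replicate was left out, lowest without replicate 1. Leaving out the 5 genes listed at 0 in a library beside a median of at least 5 FPKM, an alternative chosen after seeing the data, gave 38. The counts over all transcription factor, surface, signalling and other lineage lists kept within 1.5 times of the values given under each alternative run, and counts of single lists were not recomputed. Of 254 named genes, each mean stayed within 1 SD under median-ratio scaling. The scaling factors ran only from 0.841 to 1.137, so most means could hardly move that far, and this says little on single genes. Rescaling to a sum of 1000000, which changes the unit, moved 246 by more than 1 SD. Each mean also stayed within 1 SD without any 1 replicate. Leaving out 1 of 5 libraries cannot move a mean that far, so this says nothing on how single genes depend on 1 library. Depth limits every statement on genes under the floor.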

Other observations

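Genes of metabolism and stress that the text above does not describe were well covered. Of 22 genes of glycolysis and hypoxia, 19 (86.4%, against 46.2% of all genes) had a mean of at least 1 FPKM. They were led by Gapdh (658 ± 163 FPKM), Pkm2 (186 ± 34.1) and Ldha (162 ± 43.2), which makes lactate. Hk1, the housekeeping hexokinase, had 38 ± 5.59 FPKM, whereas the inducible Hk2 had 0.349 ± 0.229 and the hypoxia target Vegfa 0.776 ± 0.701. The chaperones Hspa8 and Hsp90ab1 had 568 ± 161 and 468 ± 41.8 FPKM, while the heat-inducible Hspa1a and Hspa1b had 0.227 ± 0.162 and 0.181 ± 0.154, at or near the floor. Of 11 glucocorticoid response genes 7 (63.6%) reached 1 FPKM. Fkbp5, a cochaperone of the receptor, stood at 126, 108, 103, 114 and 75 FPKM, lowest in replicate 5 as Tsc22d3 was. The receptor gene Nr3c1 had 36.9 ± 2.3 FPKM.

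Of 24 histone and chromatin protein genes 21 (87.5%, against 46.2% of all genes) reached 1 FPKM. The replacement histone genes H3f3a (879 ± 261 FPKM) and H3f3b (678 ± 222) were far above replication-dependent ones such as Hist1h1c (11.8 ± 5.51), Hist1h1e (0.483 ± 0.273) and Hist1h1b (0.237 ± 0.233). Transcripts of the latter kind carry no poly(A) tail, and the part of poly(A) selection in this gap was not tested. Spo11, the meiotic DNA cutter that appears among DP markers, stood at 40.9, 32.7, 24.3, 34.8 and 28.5 FPKM, and Tdrd5, a germ cell protein, at 34.3, 42.3, 45.4, 41.9 and 43.6 FPKM.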
